A study of Homo sapiens with 6 samples.

Results

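Adhesion and junction molecules hold cells to each other and to the matrix beneath them, and 6 such genes, MCAM, ALCAM, NID1, ITGB4, CLDN2 and PKP3, are described here in liver cancer cells that received an siRNA against H19. They were selected on their adjusted p and fold change in this comparison, being 6 of the 1998 genes that the authors' deposited table lists as changed (adjusted p under 0.05). HepG2, the line used, grew from a human liver tumour and still makes many hepatocyte products. The cells were transfected in 6-well plates with an siRNA against the long noncoding RNA H19 (siH19, 3 libraries) or with a control siRNA (siCon, 3 libraries) and harvested after 48 h. RNA depleted of ribosomal RNA was sequenced, and the study compared the transcripts of the 2 groups. No genotype or drug differed between the groups per the labels, the sequence of the siRNA is not given in the sources used here, and the level of H19 itself was not analysed here.

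MCAM and ALCAM are surface proteins of the immunoglobulin family that bind laminin-containing matrix or like molecules on neighbouring cells. NID1, nidogen-1, is a secreted protein that links the laminin and collagen IV networks of a basement membrane, the sheet on which epithelia rest. ITGB4 is the integrin beta chain that pairs with the alpha chain ITGA6 and anchors cells to basement membrane laminin in hemidesmosomes. CLDN2 is a claudin that forms cation-permeable and water-permeable pores in tight junctions, and PKP3 is a plakophilin that ties desmosomal cadherins to keratin filaments. In healthy liver, hepatocytes face a sparse matrix without a full basement membrane, whereas bile ducts and vessels rest on one.

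The sequences shown first are the promoters of the 3 members that rose at least 2-fold and of the member that fell. They are RefSeq sequences (build GRCh38.p14) from 250 bases before to 50 bases after the start site, read 5′ to 3′ on the gene's strand. RefSeq windows were matched for these 4 members only, and none for ITGB4 and PKP3, which also rose. CLDN2 has 2 start sites, of which the upstream one is printed. Capitals mark any of 6 motifs, searched on both strands: the GC box GGGCGG, the cyclic AMP response element TGACGTCA, the AP-1 element TGANTCA, the TEAD element GGAATG, the E2 box CACCTG and the TATA box TATAAA.
MCAM promoter, chr11:119317081-119317380, minus strand: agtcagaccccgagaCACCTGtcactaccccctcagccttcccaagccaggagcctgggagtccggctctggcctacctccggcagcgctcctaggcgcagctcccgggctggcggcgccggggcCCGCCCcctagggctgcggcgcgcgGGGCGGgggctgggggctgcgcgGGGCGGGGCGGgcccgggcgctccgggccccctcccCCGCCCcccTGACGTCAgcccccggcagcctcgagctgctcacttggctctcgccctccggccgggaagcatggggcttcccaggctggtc
ALCAM promoter, chr3:105366659-105366958, plus strand: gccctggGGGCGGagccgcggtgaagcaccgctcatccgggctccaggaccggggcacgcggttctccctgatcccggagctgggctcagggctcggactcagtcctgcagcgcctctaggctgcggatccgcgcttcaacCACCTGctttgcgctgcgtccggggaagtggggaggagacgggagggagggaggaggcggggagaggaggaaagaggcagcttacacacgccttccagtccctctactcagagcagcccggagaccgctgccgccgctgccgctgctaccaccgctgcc
NID1 promoter, chr1:236065041-236065340, minus strand: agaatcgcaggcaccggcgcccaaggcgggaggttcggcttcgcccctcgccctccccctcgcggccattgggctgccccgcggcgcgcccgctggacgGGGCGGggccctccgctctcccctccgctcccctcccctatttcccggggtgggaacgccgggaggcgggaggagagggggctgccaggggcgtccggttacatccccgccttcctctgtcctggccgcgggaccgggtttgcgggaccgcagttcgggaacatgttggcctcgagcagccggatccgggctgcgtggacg
CLDN2 upstream promoter, chrX:106899914-106900213, plus strand: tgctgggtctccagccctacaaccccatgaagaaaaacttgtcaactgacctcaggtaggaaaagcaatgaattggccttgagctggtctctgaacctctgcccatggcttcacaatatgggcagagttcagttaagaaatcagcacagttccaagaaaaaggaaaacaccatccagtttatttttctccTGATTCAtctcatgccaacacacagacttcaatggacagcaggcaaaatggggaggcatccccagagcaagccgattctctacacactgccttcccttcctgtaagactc

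The promoters of MCAM, ALCAM and NID1 held the GC box, 5 matches in MCAM, of which 2 overlap each other, and 1 each in ALCAM and NID1. ITGB4 and PKP3, which rose too, had no window to search. The GC box is common, with at least 1 match in 44.95% of all 35116 RefSeq promoter windows of that length and in 61.7% of the 2346 windows of listed genes. Neither CLDN2 window held it. MCAM also held the cyclic AMP response element, beginning 32 bases before the start site, which 1.85% of all windows and 3.24% of the windows of listed genes hold. MCAM and ALCAM each held 1 E2 box, found in 20.6% of all windows and 20.1% of those of listed genes, and the upstream CLDN2 window held 1 AP-1 element, found in 7.71% and 6.56% of the same windows. The TEAD element (14.0% of all windows and 11.2% of those of listed genes) and the TATA box (11.5% and 7.54%) were in none of the 5 windows. Bases G and C made up 78.0% of the MCAM window, 74.7% of the NID1 window and 70.0% of the ALCAM window, against 47.3% and 51.3% of the CLDN2 windows and a median of 58.7% over all windows. A match describes the letters only; binding of any factor was not measured.

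The authors' deposited table gives 1 normalized count per group on a log2 scale, with the 3 libraries already combined, so values per library and their overlap were not analysed here. Of the 6 members, 5 were higher and 1 was lower in siH19, where 44.7% of all listed genes were higher and 55.3% were lower. At least a 2-fold rise was listed for 3 members, as for 1.75% of listed genes, and at least a 2-fold fall for 1 member, as for 2.4%. The authors' adjusted p was under 0.001 for 5 of the 6, and for 40.7% of all listed genes. Because the members were taken from this comparison, these counts describe them and test nothing. Nothing in the labels tells whether libraries of 1 group were separate cultures, and the authors' errors may therefore reflect technical spread.

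MCAM, the melanoma cell adhesion molecule, had a log2 normalized count of 10.74 in siH19 and 9.62 in siCon in the authors' deposited table, which is a normalized count of 1710.3 against 786.9. Its log2 fold change in the authors' deposited table was 1.11 ± 0.10 (SE), a 2.16-fold rise. ALCAM, the activated leukocyte cell adhesion molecule, stood at 10.76 in siH19 and 9.71 in siCon on the log2 count scale of the authors' deposited table, with a change of 1.05 ± 0.09 (SE) on that scale and normalized counts of 1734 in siH19 and 837.5 in siCon. These 2 related surface molecules had nearly the same level and the same change. By the authors' deposited table the 2 changes differed by 0.06 on the log2 scale, less than the SE of that difference, 0.13, if the errors are taken as independent.

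NID1 was the member of highest level, at a log2 normalized count of 12.11 in siH19 and 11.05 in siCon in the authors' deposited table, or counts of 4421 and 2120.2. It rose by 1.06 ± 0.08 (SE) on the log2 scale in the authors' deposited table, a 2.08-fold rise. Its change differed from that of MCAM by -0.05 (SE 0.13 if independent), so the 3 largest rises could not be told apart by size.

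ITGB4 had log2 normalized counts of 8.14 in siH19 and 7.21 in siCon in the authors' deposited table, counts of 282.1 and 148.1. The authors' deposited table put its rise at 0.93 ± 0.14 (SE) on the log2 scale, or 1.91-fold. PKP3 was the smallest change, with log2 counts of 8.25 in siH19 and 7.80 in siCon and a 1.37-fold rise, 0.45 ± 0.13 (SE) on the log2 scale, in the authors' deposited table. Its adjusted p, 0.00607, was the largest of the members and lay inside the authors' threshold of 0.05; the largest in the authors' deposited table was 0.0498, and genes beyond it were not analysed here.

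CLDN2 was the 1 member that fell, with log2 normalized counts of 5.04 in siH19 and 6.06 in siCon in the authors' deposited table, counts of 32.9 and 66.7. The log2 fold change in the authors' deposited table was -1.01 ± 0.20 (SE), a 2.01-fold fall, with an adjusted p of 1.5e-05. The authors' deposited table wrote the adjusted p of MCAM, ALCAM, NID1 and ITGB4 as 0, which means below its precision; its smallest value above 0 was 1e-06. CLDN2 also had the lowest mean normalized count of the members, 49.8, which was above that of 5.31% of listed genes. With normalized counts taken as reads in 3 libraries per group, counting error would give 0.18 for CLDN2, against its deposited SE of 0.20. For NID1 the same calculation gives 0.022 against the deposited 0.08. Normalized counts are a signal and not whole reads, so these values cannot tell how much of an SE is counting error.

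**Figure D1:**
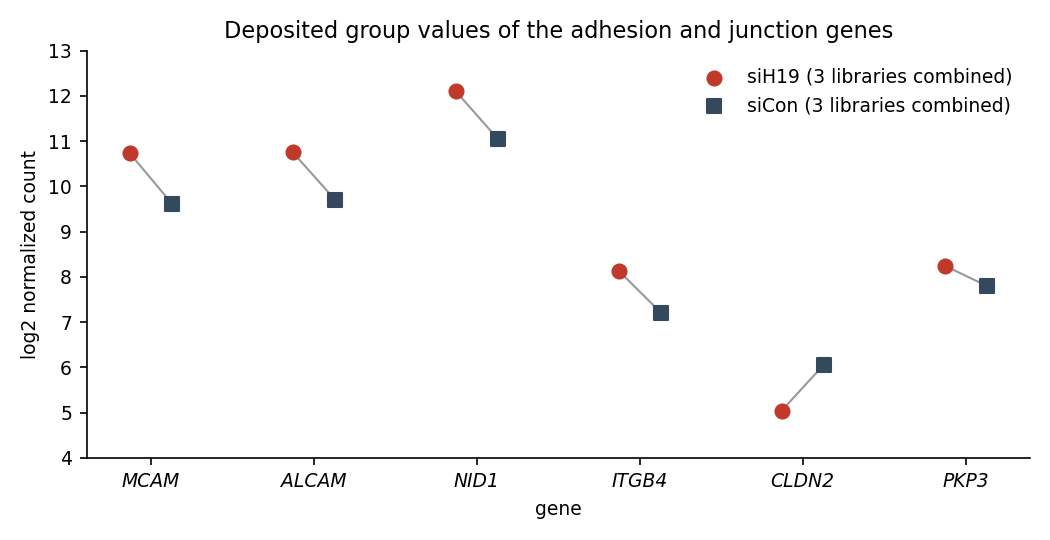
Log2 normalized count of each member in siH19 (red circles, left) and siCon (dark squares, right), 3 libraries combined by the authors, with no error bars because the table gives none per group. The siH19 value is above the siCon value in 5 genes and below it in CLDN2 (5.04 against 6.06).

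Among all listed genes that rose, MCAM ranked 11 of 893 by log2 fold change, NID1 22, ALCAM 26, ITGB4 50 and PKP3 452, and CLDN2 ranked 41 of the 1105 that fell. The ranks depend on level, since a larger change is needed for a gene of low count to be listed. Among rising genes with a mean count within 2-fold of its own, NID1 ranked 2 of 146, MCAM 2 of 334, ALCAM 5 of 324, ITGB4 21 of 268 and PKP3 177 of 297. CLDN2 ranked 6 of 89 among falling genes of like level. Divided by its SE, the change of NID1 ranked 4 among rising genes and that of CLDN2 ranked 248 among falling genes. The smallest rise listed at a level within 2-fold of PKP3 was 0.29 on the log2 scale, against 0.45 for PKP3 itself.

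**Figure D2:**
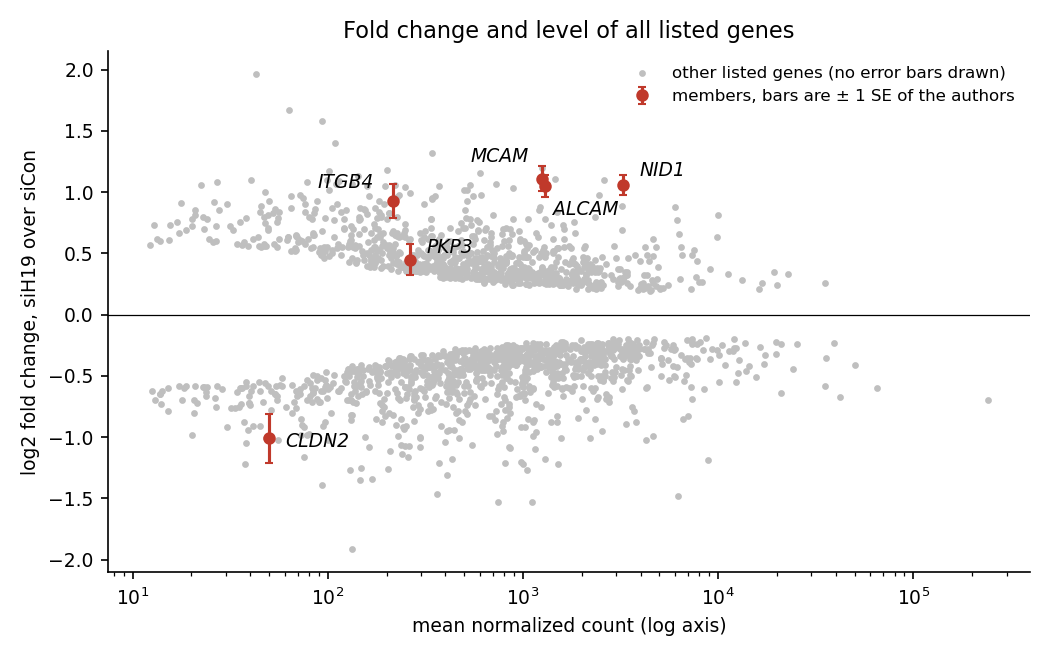
Log2 fold change, siH19 over siCon, against mean normalized count (log axis) for all 1998 listed genes (grey) and the 6 members (red, bars ± 1 SE of the authors). MCAM, ALCAM and NID1 lie between 1.05 and 1.11 at the upper edge for their level, PKP3 lies at 0.45 among the bulk of rising genes of its level, and CLDN2 lies at -1.01 at a low count.

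Levels can be compared between genes only per length, and were divided by the exon length annotated in GENCODE release 29. Per kb, the siH19 and siCon levels were 753.8 and 361.6 normalized counts for NID1, 241.6 and 116.7 for ALCAM, and 230.4 and 106.0 for MCAM. PKP3 had 80.4 normalized counts per kb in siH19 and 58.8 in siCon, ITGB4 had 41.7 and 21.9 in the same order, and CLDN2 had 9.65 in siH19 and 19.6 in siCon. The order from NID1 to CLDN2 was thus the same in both groups. The distance between its ends was wider in siH19, where NID1 stood 78.1-fold above CLDN2 per kb, against 18.5-fold in siCon. That widening restates the rise of NID1 and the fall of CLDN2 and is no separate result. ALCAM and MCAM had close levels in both groups. ITGB4 and CLDN2, at the low end, were closer in level in siCon than in siH19, which likewise restates their opposite changes. With no value per library, whether neighbours differ beyond their spread was not tested.

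**Figure D3:**
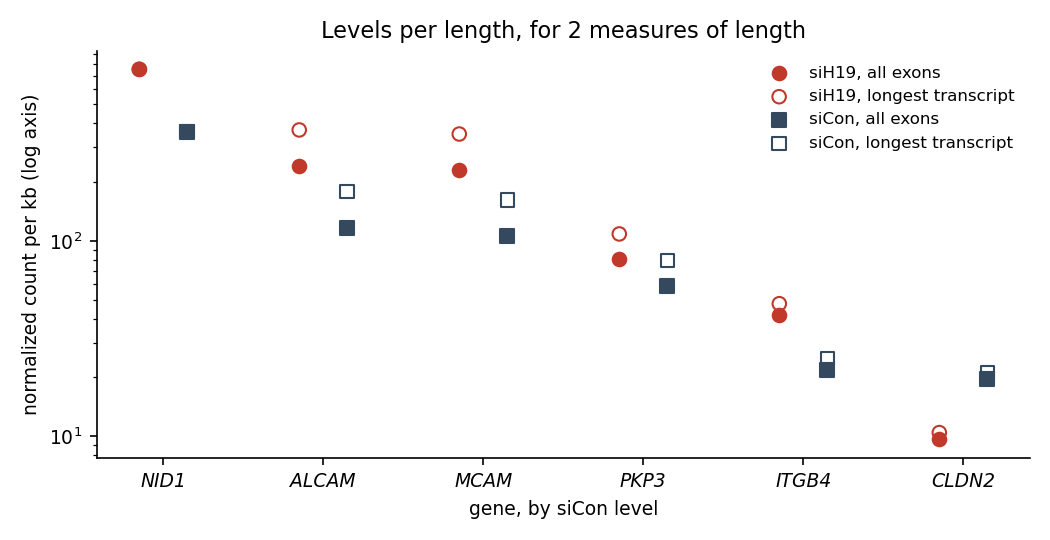
Normalized count per kb (log axis) of each member in siH19 (red circles, left) and siCon (dark squares, right), with the length taken over all annotated exons (filled) or over the longest transcript (open). NID1 is highest in both groups, and CLDN2 is lowest at 9.65 in siH19 and 19.6 in siCon over all exons.

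Around the members, 12 lists of adhesion and junction genes with 320 symbols were looked up, and 59 genes were in the authors' deposited table. In siH19, 44 of these were higher and 15 were lower. Their median log2 fold change was 0.40, against 44.7% higher and a median of -0.27 over all listed genes. Without the 6 members the counts were 39 higher and 14 lower of 53, with a median of 0.39. These are genes already called by the authors, and genes outside the table were not analysed here, so the counts give direction among called genes only.

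In the list of immunoglobulin-family surface adhesion molecules most were higher, 7 of 8 listed out of 38 symbols, with a median log2 fold change of 0.65. These counts include MCAM and ALCAM, which were selected on this comparison, and 44.7% of all listed genes were higher. After MCAM and ALCAM the largest rise in the authors' deposited table was that of L1CAM, a neural adhesion molecule (0.95 ± 0.11). The other named members were CADM1, a cell adhesion molecule of epithelia and neurons (0.25 ± 0.09), and PVRL1, now NECTIN1, which joins adherens junctions (0.52 ± 0.13) in the authors' deposited table. ICAM1, a leukocyte-binding molecule raised by inflammatory signals, was the 1 in this list that fell, at -0.71 ± 0.07 in the authors' deposited table. Its normalized counts were 2106 in siH19 and 3444 in siCon. CXADR (-0.53 ± 0.09) and JAM3 (0.55 ± 0.15) were counted in the tight junction list and not in this one. The changes of MCAM and ICAM1 differed by 1.82 on the log2 scale (SE 0.12 if independent).

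Basement membrane genes, with the selected NID1 included, were all higher among those listed, 8 of 32 symbols, against 44.7% of all listed genes. The median log2 fold change of the basement membrane genes was 0.53. NID1 headed them, and its network partners in the authors' deposited table were the collagen IV chains COL4A6 (0.96 ± 0.14) and COL4A5 (0.73 ± 0.11), the laminin chain LAMA5 (0.36 ± 0.12) and perlecan, HSPG2 (0.39 ± 0.11). FBLN1, a fibulin, had the smallest rise (0.31 ± 0.10) in the authors' deposited table. The rise of NID1 was larger than that of LAMA5 by 0.70 (SE 0.14 if independent), and did not stand apart from that of COL4A6 (difference 0.10, SE 0.16).

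Integrin subunits were divided, 3 higher and 3 lower of 6 listed out of 26 symbols, with ITGB4 the highest. ITGA6, the alpha chain of ITGB4, changed in the opposite direction, at -0.19 ± 0.07 in the authors' deposited table. The authors' adjusted p for ITGA6 was 0.0283, so its fall did not pass the stricter threshold of 0.01, which the rise of ITGB4 passed. The changes of ITGB4 and ITGA6 differed by 1.12 on the log2 scale (SE 0.16 if independent). Per kb of exon, ITGA6 had 29.6 times the normalized count of ITGB4 in siH19 and 64.9 times in siCon, so the alpha chain remained far more abundant than the beta chain at the RNA level. The collagen-binding chain ITGA2 was lower (-0.29 ± 0.08), and ITGAV, the alpha chain of vitronectin receptors, was higher (0.63 ± 0.10) in the authors' deposited table. The leukocyte integrin chains were ITGB2, at 0.60 ± 0.19, and ITGAL, at -0.70 ± 0.22 and a mean normalized count of 18.0, in the authors' deposited table. In the hemidesmosome list 2 of 11 symbols were listed, ITGB4 and ITGA6, and with an adjusted p under 0.01 ITGB4 alone remained.

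Tight junction genes were likewise divided, 4 higher and 3 lower of 7 listed out of 46 symbols. CLDN2 was the lowest of them and CLDN6, a claudin of embryonic epithelia, the highest, at 0.83 ± 0.14 in the authors' deposited table. CLDN6 had normalized counts of 265.0 in siH19 and 149.1 in siCon, so the 2 listed claudins moved in opposite directions, 1.84 apart on the log2 scale (SE 0.24 if independent). The other falls in the authors' deposited table were CXADR, the coxsackievirus and adenovirus receptor of epithelial junctions (-0.53 ± 0.09), and the polarity protein PARD6B (-0.37 ± 0.10). JAM3, a junctional adhesion molecule, was higher (0.55 ± 0.15), as was the angiomotin-like AMOTL1 at a mean normalized count of 18.8 (0.69 ± 0.22) in the authors' deposited table.

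All 3 desmosome genes listed out of 14 symbols were higher, PKP3 itself included, where 44.7% of all listed genes were higher. In the authors' deposited table they were JUP, plakoglobin (0.50 ± 0.11), PKP3 (0.45 ± 0.13) and DSP, desmoplakin (0.33 ± 0.08). All 3 belong to the plaque on the inner face of the junction. PKP3 differed from DSP by 0.12 (SE 0.15 if independent) and from JUP by -0.05 (SE 0.17), within the errors. In the adherens junction list 4 of 5 listed genes, out of 26 symbols, were higher: besides PVRL1, the authors' deposited table gave 0.37 ± 0.09 for beta-catenin, CTNNB1, which links cadherins to alpha-catenin, 0.30 ± 0.11 for PLEKHA7 and 0.25 ± 0.09 for N-cadherin, CDH2. The lower gene was alpha-catenin, CTNNA1, at -0.25 ± 0.08 in the authors' deposited table. Gap junction genes were 1 higher, GJC1 (0.46 ± 0.11), and 1 lower, GJB1, the main connexin of hepatocytes (-0.79 ± 0.14), in the authors' deposited table.

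Linkers between adhesion receptors and actin were 5 higher and 2 lower of 7 listed, against 44.7% higher of all listed genes. The list of linkers had 29 symbols. TLN1, talin, which binds integrin tails, rose most (0.89 ± 0.08), followed by zyxin, ZYX (0.48 ± 0.09), and BCAR1 (0.35 ± 0.13) in the authors' deposited table. The 2 lower genes in the authors' deposited table were TNS2, a tensin (-0.80 ± 0.12), and FERMT2, kindlin-2 (-0.34 ± 0.08). The smallest rise among the named linkers was that of LIMS1, 0.25 ± 0.09 in the authors' deposited table.

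**Figure D4:**
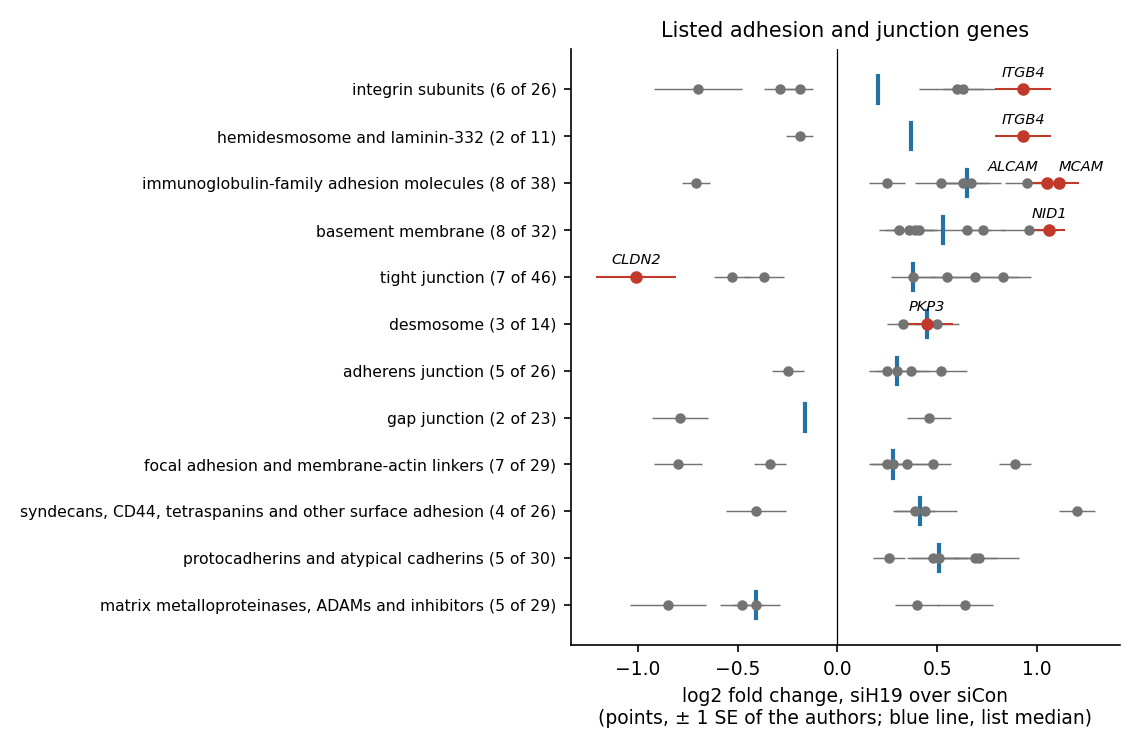
Log2 fold change, siH19 over siCon, of every listed gene (points, ± 1 SE of the authors) in each of the 12 lists, with the number listed of the number of symbols; members are red and the blue line is the list's median. All listed basement membrane, desmosome and protocadherin genes lie right of 0, and integrins and tight junction genes lie on both sides. Over all listed genes 44.7% were higher.

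Markers of the line and of other cells moved beside these genes, and their part in the results was not tested. Of 10 hepatocyte and HepG2 markers 9 were listed, with normalized counts of 560.3 to 182812 in siH19 and 1024 to 299044 in siCon. All 9 were lower (median log2 fold change -0.58). Over all listed genes 55.3% were lower and 44.7% were higher. Of 9 bile duct markers 3 were listed and all were higher in the authors' deposited table: CD24 (1.20 ± 0.09), SPP1 (0.53 ± 0.09) and PROM1 (0.40 ± 0.12), with normalized counts of 340.1 to 8841 in siH19 and 256.0 to 6123 in siCon. Of 12 endothelial markers LYVE1 alone was listed (-0.98 ± 0.20), and of 11 pericyte, stellate and fibroblast markers ACTA2 alone (-0.83 ± 0.11) in the authors' deposited table, with counts of 52.7 in siH19 and 104.7 in siCon for LYVE1 and of 484.4 and 861.1, in the same order, for ACTA2. Of 9 leukocyte markers CD68 (-1.21 ± 0.11), LYZ (-0.64 ± 0.08) and ITGB2 were listed in the authors' deposited table, with counts of 88.6 to 16271 in siH19 and 58.5 to 25355 in siCon. Whether the unlisted defining markers are at 0 cannot be read from a table of called genes.

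The listed genes nearest to each member in standardized log2 fold change and log2 mean count, over the 2 group values, were found by Euclidean distance across all 1998 genes. MCAM and ALCAM were among each other's 2 nearest (distance 0.11), and the second gene nearest to both was XPR1, a phosphate exporter (1.11 ± 0.09 in the authors' deposited table). The genes nearest to NID1 were YWHAH, a 14-3-3 protein (distance 0.18), and the kinase HIPK3 (0.25). Nearest to ITGB4 were FAM122B (distance 0.022) and the basement membrane collagen COL4A6 (0.064). Nearest to CLDN2 were the long noncoding RNA LUCAT1 (distance 0.021) and the transcription factor ELF5 (0.077), and nearest to PKP3 were PGAP1 (0.0021) and WHAMM (0.019). With 2 group values per gene many genes lie close together, and nearness is a description of these values.

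Of the members, CLDN2 was the 1 that overlaps another listed gene. In GENCODE release 29 it lies within the span of MORC4, on the opposite strand, and MORC4 was lower too (-0.29 ± 0.08 in the authors' deposited table) at a mean normalized count of 1470, far above that of CLDN2. The library kit keeps strand, but no source used here tells whether counting used strand, so reads of CLDN2 and MORC4 may not be fully separated. MCAM and ITGB4 overlap the ends of CBL and GALK1 on the opposite strand, and neither is in the table. CLDN2 also overlaps RIPPLY1 on the opposite strand, which is not among the listed genes. Among the other genes named here ADAM19, TNS2, PLEKHA7 and LYVE1 each overlap another listed gene.

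H19 is known to bind let-7 microRNAs and is the host transcript of miR-675, so the longest annotated 3′ untranslated region (UTR) of each member was searched for sites that pair with these seeds. The mature sequences, from RefSeq (GRCh38.p14), have the seed, bases 2 to 8, in capitals.
let-7a-5p: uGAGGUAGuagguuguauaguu
miR-675-5p: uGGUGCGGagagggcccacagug
miR-675-3p: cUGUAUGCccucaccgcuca

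The let-7 site CTACCTC was in none of the 6 UTRs, and in 12.99% of the UTRs of 1925 listed genes. Among listed genes with the let-7 site 48.4% were higher in siH19, against 44.9% of those lacking it. The miR-675-5p site CCGCACC was found in ITGB4, and in 4.57% of listed UTRs. The miR-675-3p site GCATACA was found in MCAM, and in 8.31% of listed UTRs. Of the 88 listed genes with the miR-675-5p site 44 were higher in siH19, against 45.1% of those lacking it, and for the miR-675-3p site the shares were 44.4% and 45.4%. The UTRs searched ran from 339 bases in PKP3 and 497 in ITGB4 to 2037 in NID1 and 2449 in ALCAM, and a longer UTR has more room for a match.

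A further pair of 7-base sequences, GCAGTAC and CATCAAA, was searched because an earlier search of these same fold changes had picked them, so their ties to direction are no independent evidence. GCAGTAC was in 184 of the 1925 UTRs, and 82.6% of these genes were higher in siH19, against 41.4% of genes that lack it. CATCAAA was in 338 UTRs, of which 27.8% belonged to genes that were higher, against 49.1% without it. ALCAM and NID1 hold GCAGTAC once each and NID1 also holds CATCAAA once, while MCAM, ITGB4, CLDN2 and PKP3 hold neither. NID1, with both, rose by 1.06, and MCAM, with neither, rose by 1.11 on the log2 scale in the authors' deposited table. No mature human microRNA in the RefSeq table has a seed that pairs with either sequence. That lookup covered microRNAs only. The transfected siRNAs were left out of it, and whether a seed of theirs pairs with GCAGTAC or CATCAAA was not tested. Whether the rises of ALCAM and NID1 came from less H19 or from the siRNA sequence itself was not tested either. The sites that were found are printed from GENCODE release 29 transcripts (GRCh38), with 11 bases on each side and the 7 matched bases in capitals.
ALCAM, GCAGTAC, chr3:105575544-105575572, plus strand: taatttatcaaGCAGTACatgaaagtgta
NID1, GCAGTAC, chr1:235976207-235976235, minus strand: cacttgcttctGCAGTACattggaacctg
NID1, CATCAAA, chr1:235977250-235977278, minus strand: cgctgctttttCATCAAAacctaccctgt
ITGB4, miR-675-5p site, chr17:75757545-75757573, plus strand: tccaaacttgaCCGCACCctgccccaccc
MCAM, miR-675-3p site, chr11:119308642-119308670, minus strand: tctgtgtgtatGCATACAtatgtgtgtat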

How the data were processed

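The members, the 12 adhesion lists, the marker lists and the comparisons were chosen with earlier results of these data known. The build was hg19 and the tools included DESeq2 1.0.0, Cufflinks 2.2.1 and STAR 2.5.0a, in no stated order, per the submitters' processing notes. Annotation and use of strand in counting are not given in the sources used here. A single table of called genes was deposited by the authors, with log2 values per group, a log2 fold change with its SE, a mean normalized count (a signal, not whole reads), and a q-value, the adjusted p-value, whose method is not stated. The deposited fold change is siH19 minus siCon: it equalled the difference of the group values within 0.01. No value per library was used, library totals and depth are unknown, and 0 columns came from samples outside the series. The design foresaw a fit to counts per library if the file held them; as it held the authors' comparison, no test was added.

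Counts are 2 to the power of the deposited log2 values. Exon lengths and UTRs came from GENCODE release 29 (GRCh38), a different build from the authors', matched to 1973 of 1998 symbols, partly through RefSeq synonyms. Genes were named by rule: the 6 members, all listed genes of lists with up to 6, otherwise the 3 highest and 3 lowest, the 2 nearest genes, and overlapping listed genes; others were chosen after their values were seen. An SE of a difference assumes independent errors. Alternatives were adjusted p thresholds, levels, overlaps, fold size, ranks and UTR choice. Functions were tested on simulated data. Python 3.11.15, numpy 2.4.6, pandas 2.3.3 and scipy 1.17.1 were used. 1 gene near a member is not reported here.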

Additional observations from a re-analysis of the deposited data

How the results depend on the processing

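At an adjusted p under 0.01 all 6 members stayed past the threshold, and under 0.001 5 did, PKP3 (0.45 on the log2 scale) being the one that no longer passed. Taking the difference of the group values in place of the deposited fold change kept the direction of all 6. That could not come out otherwise, since the 2 measures differ by at most 0.01 in any listed gene, and it is no check. With at least a 1.5-fold change the adhesion lists held 19 higher and 6 lower genes, against 44 and 15 at any size, while the share that was higher was 76.0% against 74.6%. Adjusted p under 0.01, a mean count of at least 100 and leaving out overlapping genes each left the total counts within 1.5 times. Single lists moved more. Under 0.01 the linkers went from 5 higher and 2 lower to 2 and 2. Higher adherens junction genes went from 4 to 2, and lower integrin subunits from 3 to 1, with ITGA6 among those lost. No desmosome or adherens junction gene changed at least 1.5-fold, and 5 of the 8 basement membrane genes had an adjusted p under 0.01. Ranks moved with the measure, as given with the ranks. Searching every annotated UTR of each member added no match. That search includes the longest UTR, so it could not lose a match, and whether other transcripts lack a site was not tested. No paired analysis was possible because the table holds 1 value per group; for the same reason no library could be left out and no other count test or filter on low counts could be run. CLDN2 rests on a mean normalized count of 49.8, and depth per library is unknown.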

Other observations

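Some adhesion-related genes outside the members' own structures were listed too. All 5 listed protocadherins and atypical cadherins, out of 30 symbols, were higher: PCDH1 (0.71 ± 0.20), the calsyntenin CLSTN3 (0.69 ± 0.11), the planar polarity cadherin CELSR2 (0.51 ± 0.14), PCDHB2 (0.48 ± 0.13) and the giant cadherin FAT1 (0.26 ± 0.08) in the authors' deposited table. Over all listed genes the share that was higher was 44.7%. Proteases that cut matrix and surface proteins were 2 higher and 3 lower of 5 listed. The membrane-bound collagenase MMP14 was higher (0.64 ± 0.14), as was ADAM19 (0.40 ± 0.11), and the stromelysin MMP3 (-0.85 ± 0.19), MMP15 (-0.48 ± 0.11) and the surface protease ADAM10 (-0.41 ± 0.12) were lower in the authors' deposited table. Among other surface adhesion genes CD24, the heparan sulfate proteoglycans SDC3 (0.44 ± 0.16) and GPC6 (0.39 ± 0.10) were higher and the tetraspanin TSPAN4 (-0.41 ± 0.15) was lower in the authors' deposited table.

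Listed genes within 500 kb of a member (GENCODE release 29) moved in both directions around MCAM and ITGB4. Those around NID1 (3 genes), CLDN2 (3) and PKP3 (2) were lower. Of all listed genes 55.3% were lower and 44.7% higher, and whether such small counts depart from these shares was not tested. Near MCAM, 3 of 4 were higher: VPS11 (0.55 ± 0.13), NECTIN1, listed as PVRL1 (0.52 ± 0.13) and HINFP (0.38 ± 0.13), with TRAPPC4 lower (-0.39 ± 0.13) in the authors' deposited table. Near ITGB4, for example, UNC13D (0.64 ± 0.12), TRIM65 (0.68 ± 0.14) and FOXJ1 (0.54 ± 0.20) were higher and MIF4GD (-0.47 ± 0.14) and SRP68 (-0.27 ± 0.09) were lower in the authors' deposited table. Near NID1, LGALS8 (-0.67 ± 0.08), its antisense partner LGALS8-AS1 (-0.63 ± 0.22) and GNG4 (-0.55 ± 0.11) were lower while NID1 rose, in the authors' deposited table. LGALS8 and LGALS8-AS1 overlap on opposite strands, and whether counting kept them apart is not known. Near CLDN2, TBC1D8B (-0.42 ± 0.14), MORC4 and RNF128 (-0.23 ± 0.08) were all lower, as CLDN2 was, in the authors' deposited table. Near PKP3, BET1L (-0.41 ± 0.11) and TSPAN4 were lower, in the authors' deposited table, and no listed gene lay within 500 kb of ALCAM.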
